A study of Mus musculus with 23 samples.

Results

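Cytochrome P450 enzymes and carboxylesterases were followed across the bulk RNA sequencing of mouse pancreatic ductal adenocarcinoma cells and organoids. The 7 genes described are Cyp2c55, Cyp2c65, Cyp2s1, Cyp3a13, Cyp4f14, Cyp1b1 and Ces2g, out of 27207 genes in the count table. They were chosen by symbol, with their levels in all 6 groups and their spread between collagen replicates already known, so their own levels and fold changes are given as a description, without a test. All 7 were among the 11144 genes that passed the filter on low counts. The 23 libraries comprised 6 of KC cells grown in 2D, 3 of KC organoids grown for 13 days in Matrigel, and KC organoids in floating collagen gels, with 3 libraries of day 7, 5 of day 13 in batch 1 and 3 of day 13 in batch 2. KPC organoids, also of day 13 in collagen, gave 3 libraries in batch 2. The 2D, Matrigel and day 7 libraries all carry the label of batch 1. KC and KPC are the labels' names of the genotypes of the tumor-bearing mice, in both of which Cre acts in the pancreas (Ptf1a Cre/+ in KC and Pdx1 Cre/+ in KPC). All KC libraries come from the line of mouse 9591 and all 3 KPC libraries from the line of mouse 14390, so genotype and line cannot be told apart. Matrigel was growth factor-reduced, collagen was rat tail collagen I, and organoids were freed with collagenase before lysis whereas 2D cells were lysed directly, so digestion and culture format cannot be told apart either.

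Cytochromes P450 are heme enzymes of the endoplasmic reticulum that insert an oxygen atom into lipophilic substrates, with electrons delivered by the reductase encoded by Por and in part by cytochrome b5. Members of the CYP1 to CYP4 families oxidize drugs, steroids and fatty acids such as arachidonic acid, and carboxylesterases hydrolyze ester and amide bonds of drugs and lipids. Several of these genes are controlled by ligand-activated transcription factors, among them the aryl hydrocarbon receptor (Ahr) and the pregnane X receptor (Nr1i2), and the products are often conjugated by glucuronosyltransferases and sulfotransferases. In the body these enzymes are best known from liver and intestine.

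Each count stands for a captured RNA molecule, since the libraries carry unique molecular identifiers and cover the 3' ends of polyadenylated RNA. Total counts ran from 1221451 to 2471058 per library (median 1845921). Levels are given in CPM, that is, scaled by library totals after TMM correction, and where no molecule was counted up to 3 may have been missed, which is 1.16 to 3.22 CPM depending on the library. KC 2D replicates 1 to 3 stood apart, with TMM factors between 0.738 and 0.772 where replicates 4 to 6 had 1.04 to 1.06, and 2D results are therefore also given without them where they moved. All 8 markers of ductal tumor epithelium were present in every group, and none of 5 endothelial markers exceeded 3 counts in any library. Of 8 fibroblast markers Col1a2 had 31 to 125, Col3a1 10 to 77 and Dcn 6 to 31 counts. Thy1 was at 0 in every group, and the list summed to 32.7 to 187 CPM. Only 4 of the 8 genes of the macrophage and leukocyte list were in the count table. Of these Cd68 had 6 to 83 counts, whereas Ptprc, Csf1r and Lyz2 had at most 3. That list summed to 30.7 to 36.6 CPM in Matrigel and to at most 22.1 CPM elsewhere. Only 2 of the 6 acinar markers were in the count table, where Cela1 had 7 to 29 counts and Ctrb1 at most 1. Of the 6 hepatocyte markers 5 were in the count table. Alb was at 0 in every library, while Apob had 29 to 297 and Ttr 5 to 113 counts. The hepatocyte list summed to 37.5 to 66.9 CPM in 2D and 62.3 to 172 CPM in the organoids. The summed level of 6 enterocyte markers was 32.8 to 42.2 CPM in collagen at day 7, 73.0 to 133 in 2D and 131 to 144 in Matrigel. In collagen at day 13 it was 213 to 267 and 266 to 275 in the KC batches and 227 to 385 in KPC organoids. Sis was at 0 in all KC groups, and Anpep had at most 5 counts in any library. Among the KC groups the order of these sums is close to that of several genes below. For Cyp2c65, Cyp2s1, Cyp3a13, Cyp4f14 and Ces2g, however, the KPC mean lay below the mean of each KC collagen group of day 13. The part of these marker lists in the levels of the 7 genes was not tested. In bulk libraries a smaller number of cells that carry a transcript and less transcript per cell cannot be told apart.

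Cyp2c55 and Cyp2c65 lie next to each other on the plus strand of chromosome 19 (GRCm38, positions from GENCODE M21), at chr19:39007019-39042693 and chr19:39061015-39093944, with 18321 bases between them and 9 exons each. The other genes lie apart from them, Cyp2s1 at chr7:25802475-25816913, Cyp3a13 at chr5:137892932-137921619, Cyp4f14 at chr17:32905070-32917342 and Cyp1b1 at chr17:79701537-79715061, all on the minus strand, and Ces2g at chr8:104961718-104969537 on the plus strand. The coding sequences of Cyp2c55 and Cyp2c65 are 75.5% identical and their last 500 transcript bases share no run longer than 9 bases. Cyp2c65 is 96.3% identical in coding sequence to its other neighbor Cyp2c66, and the longest run shared by their last 500 bases is 59 bases, so some counts of Cyp2c65 could belong to Cyp2c66, whose own count was at most 17 in any library. Cyp4f14 shares a run of 56 bases with Cyp4f13 and is uncertain in the same way, while Ces2g shares at most 9 bases with Ces2a, Ces2b, Ces2c or Ces2e there.

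The 250 bases before the start sites of Cyp2c55, Cyp2c65 and Cyp1b1 are shown because the first pair was high in the same replicates and Cyp1b1 separated the KPC line from all KC groups. The sequences are those of RefSeq on GRCm38.p6, read 5' to 3' on the strand of the gene, and capitals mark matches on either strand to GCGTG (the core bound by the aryl hydrocarbon receptor and Arnt), AGGTCA (bound by nuclear receptors), CAAAGTCCA (bound by HNF4), GTTAAT (part of the HNF1 site), TGACNNNGC (the core of the antioxidant response element) and TATAA. The HNF4 motif was added after the Cyp2c65 sequence had been seen. Matches may overlap, and adjoining capitals can belong to 2 matches.
Cyp2c55, chr19:39006769-39007018, plus strand: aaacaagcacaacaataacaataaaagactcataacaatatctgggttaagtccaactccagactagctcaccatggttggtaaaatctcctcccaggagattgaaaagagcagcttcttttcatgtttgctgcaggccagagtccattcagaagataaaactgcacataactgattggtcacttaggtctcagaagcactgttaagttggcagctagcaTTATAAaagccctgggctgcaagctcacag
Cyp2c65, chr19:39060756-39061005, plus strand: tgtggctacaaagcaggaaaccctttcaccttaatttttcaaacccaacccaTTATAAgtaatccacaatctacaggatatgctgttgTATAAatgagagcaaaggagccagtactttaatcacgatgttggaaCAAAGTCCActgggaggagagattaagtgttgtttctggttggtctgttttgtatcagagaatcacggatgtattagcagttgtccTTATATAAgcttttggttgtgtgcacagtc
Cyp1b1, chr17:79715062-79715311, minus strand: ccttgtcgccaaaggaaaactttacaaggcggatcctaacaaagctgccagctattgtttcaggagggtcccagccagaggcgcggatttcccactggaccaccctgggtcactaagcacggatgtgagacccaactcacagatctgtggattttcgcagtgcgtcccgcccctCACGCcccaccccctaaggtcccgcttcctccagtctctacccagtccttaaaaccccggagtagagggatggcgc
Both Cyp2c promoters hold TATAA close to the start, at -29 in Cyp2c55 and -27 in Cyp2c65, and this motif occurs in 22.8% of 32817 promoter windows of the same length. The HNF4 motif lies at -116 in Cyp2c65 and occurs in 0.384% of the windows, whereas the Cyp2c55 window holds none. GCGTG lies at -76 on the opposite strand in Cyp1b1, and 28.1% of all windows hold it. Of the 7 genes, Cyp1b1 and Cyp4f14 hold GCGTG and none holds AGGTCA, which 14.03% of all windows have. Cyp4f14 has several start sites and windows, of which only chr17:32917357-32917606 holds GCGTG. The shares over all windows count each window singly. Within their windows, Cyp2s1 and Cyp3a13 hold none of the 6 motifs.

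Cyp2c55 encodes an arachidonic acid-oxidizing P450 known from mouse intestine, and its spread was widest among the collagen replicates of batch 1. Its level in those 5 libraries was 38.5, 31.2, 25.4, 247 and 189 CPM, from 53 to 552 counts. Replicates 4 and 5 thus lay far above the other three, and the coefficient of variation was 98.1%, exceeded by 0.323% of the tested genes. In collagen of batch 2 the level was lower, at 14.6, 18.8 and 11.995 CPM. KPC organoids, at 24.9, 64.0 and 24.8 CPM, overlapped with the collagen libraries of batch 1. Matrigel organoids had 10.2, 5.23 and 6.99 CPM and day 7 organoids 7.35, 5.42 and 2.98 CPM, while 2D cells ran from 5.28 to 11.6 (median 7.97). Every collagen library of day 13 in batch 1 lay above every Matrigel, day 7 and 2D library, and the last 3 groups overlapped with each other. The log2 fold change against collagen day 13 was -3.79 (SE 0.676) for Matrigel, -4.34 (SE 0.713) for day 7 and -3.81 (SE 0.559) for 2D. Without replicates 4 and 5, left out after their levels had been seen, these values were -2.03, -2.57 and -2.07, so the sign stayed and the size depended on the replicates. KPC organoids lay 1.32 above KC organoids on the log2 scale (SE 0.742), and 0.71 above without KPC replicate 2.

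Cyp2c65, its neighbor in the cluster and another intestinal P450, was also highest in replicates 4 and 5, but with a far smaller spread. Its levels in collagen day 13 of batch 1 were 747, 717, 761, 1169 and 1167 CPM. Replicates 1 to 3 were close to the second batch, at 814, 777 and 635 CPM. Matrigel organoids had 425, 440 and 370 CPM, KPC organoids 293, 467 and 472, 2D cells 181 to 217 (median 207) and day 7 organoids 132, 148 and 127. Matrigel and KPC organoids overlapped, the collagen batches overlapped, and 2D cells and day 7 organoids lay below and apart from each other. The log2 fold change against collagen day 13 was -1.15 (SE 0.173) for Matrigel, -2.75 (SE 0.190) for day 7 and -2.17 (SE 0.143) for 2D. Without collagen replicates 4 and 5 these values were -0.82, -2.43 and -1.87. KPC against KC was at -0.85 (SE 0.188). After subtraction of each group's mean, log2 levels of Cyp2c55 and Cyp2c65 had a Pearson r of 0.69 over the 23 libraries, a description of libraries that share their groups.

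**Figure D1:**
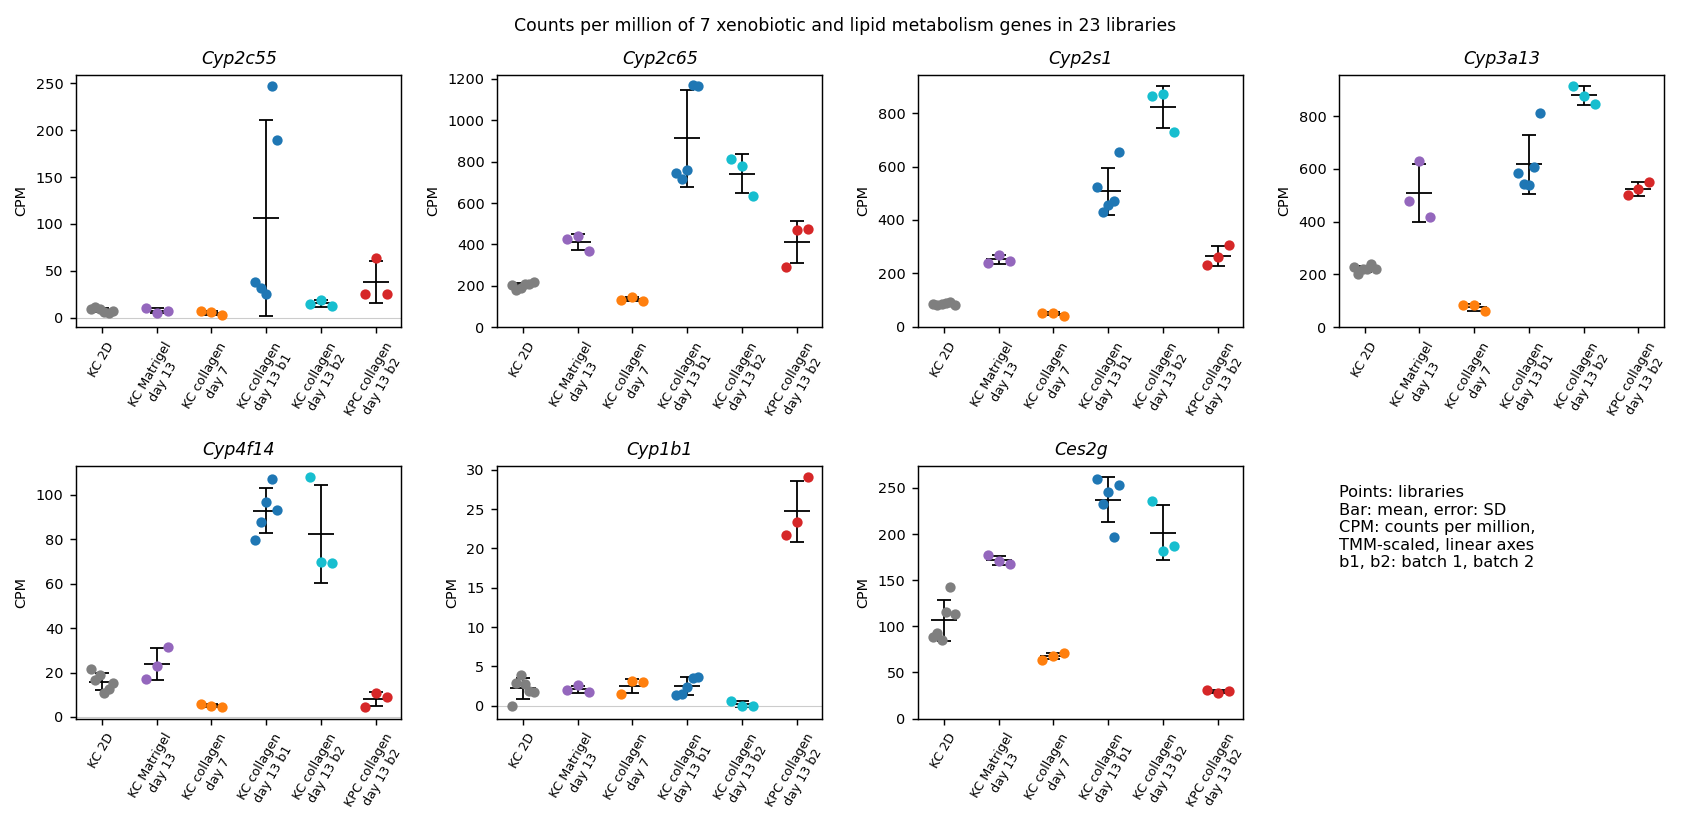
Levels in CPM (y axis, linear, separate for each gene) of the 7 genes in the 6 groups (x axis), with each library as a point, the mean as a bar and the SD as error bars. Cyp2c55 splits the collagen day 13 replicates of batch 1 into 25.4 to 38.5 CPM and 189 to 247 CPM, and Cyp1b1 reaches 21.7 to 29.0 CPM in KPC organoids alone.

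The genes that varied most like Cyp2c55 around their group means were Ces2a (r 0.86), Sbds (r 0.84), Prxl2a (r 0.82), Slc7a11 (r 0.82) and Tmem45b (r 0.82), over the 23 libraries. Ces2a, a carboxylesterase of the same family as Ces2g, had 31.5, 50.4, 33.5, 217 and 210 CPM in the 5 collagen libraries. Slc7a11, the cystine transporter subunit that supplies glutathione synthesis, had 10.7, 8.15, 9.57, 33.6 and 34.7 CPM. Both were highest in the same replicates 4 and 5, which the choice of genes by likeness to Cyp2c55 makes likely. Between groups they did not follow Cyp2c55 throughout. Slc7a11 had 52.5 to 71.6 CPM at day 7, 48.0 to 65.6 in batch 2 and 16.3 to 19.7 in Matrigel. Ces2a was low at day 7 (5.88 to 9.68 CPM), as Cyp2c55 was, but had 80.4 to 112 CPM in Matrigel. Over the library levels themselves, without removal of group means, the most similar genes were Ceacam18 (r 0.85), Gsta1 (r 0.82), a glutathione transferase, and Tprgl (r 0.81). Gsta1 had 1491, 1384 and 1600 CPM in replicates 1 to 3 and 2253 and 2589 in replicates 4 and 5. Library totals of the 5 replicates ran from 1844157 to 2097989 and their TMM factors from 1.04 to 1.07, so depth differed little between them.

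**Figure D2:**
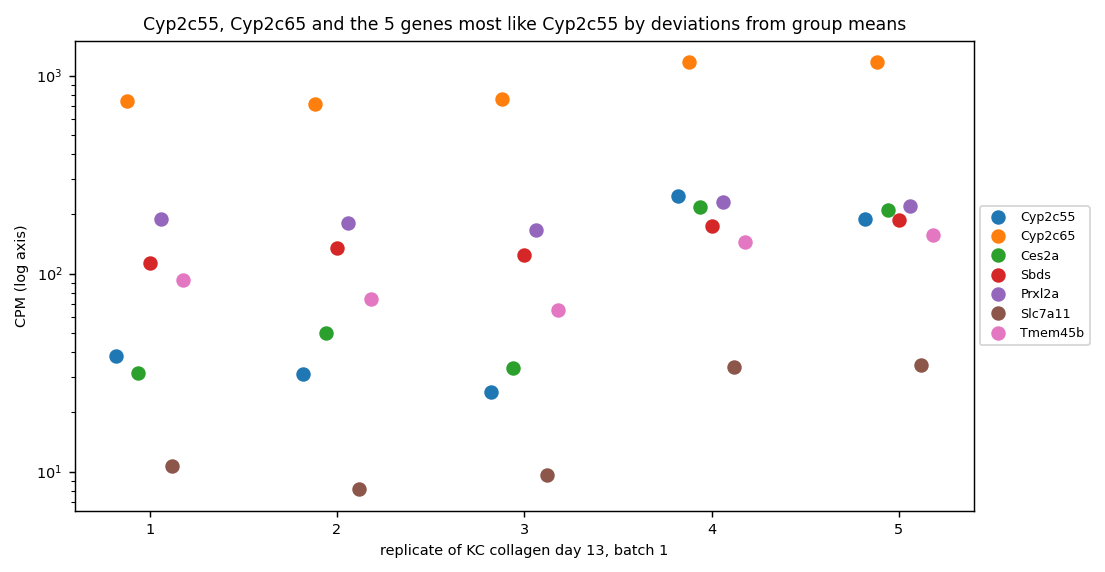
Levels in CPM (y axis, log scale) of Cyp2c55, Cyp2c65 and the 5 genes most like Cyp2c55 by their deviations from group means, in the 5 collagen day 13 replicates of batch 1 (x axis, points offset for visibility). Cyp2c55, Ces2a and Slc7a11 are higher in replicates 4 and 5 than in replicates 1 to 3. The 5 genes were chosen by likeness to Cyp2c55, so a shared height in these replicates is part of that choice.

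Cyp2s1 and Cyp3a13 followed another order, with the highest levels in the second collagen batch. Cyp2s1 encodes an extrahepatic P450 of epithelia. Its levels were 867, 871 and 731 CPM in collagen of batch 2 and 524, 431, 455, 472 and 655 in batch 1, without overlap. KPC organoids had 230, 261 and 306 CPM, and Matrigel organoids 238, 270 and 248. These groups overlapped, and 2D cells at 80.5 to 93.6 (median 85.8) and day 7 organoids at 51.0, 52.7 and 40.9 lay below them and apart. The log2 fold change was -1.01 (SE 0.132) for Matrigel, -3.39 (SE 0.154) for day 7 and -2.55 (SE 0.113) for 2D against collagen day 13, -1.63 (SE 0.146) for KPC against KC and 0.70 (SE 0.125) for batch 2 against batch 1.

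Cyp3a13, a mouse member of the CYP3A family of drug- and steroid-oxidizing enzymes, was the gene that differed least between the matrices apart from Cyp1b1. Collagen day 13 libraries of batch 1 had 584, 544, 538, 608 and 811 CPM and Matrigel libraries 480, 629 and 416. These ranges overlapped, and the log2 fold change was -0.28 (SE 0.139). Batch 2 had 914, 876 and 844 CPM, above every library of batch 1, and KPC organoids 500, 523 and 552. Day 7 organoids had 82.9, 82.5 and 61.0 CPM and 2D cells 200 to 239 (median 221), both apart from all day 13 groups. At day 7 the log2 fold change was -3.03 (SE 0.162), in 2D -1.48 (SE 0.117), and in KPC against KC -0.74 (SE 0.156). Cyp2s1 and Cyp3a13 deviated together from their group means (r 0.80 over 23 libraries), and the genes closest to them over all libraries were Syt8, Cideb and Gjb1 for Cyp2s1 (r 0.98, 0.98 and 0.98) and Selenbp1, Gm3336 and Tfcp2l1 for Cyp3a13 (r 0.98, 0.98 and 0.97).

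Cyp4f14 and Ces2g were lower in KPC than in KC organoids of the same day and batch. Cyp4f14 belongs to the CYP4F family, which omega-hydroxylates leukotriene B4 and long-chain fatty acids. Its levels in KC collagen of day 13 were 79.7, 87.8, 96.7, 107 and 93.0 CPM in batch 1 and 108, 69.7 and 69.3 in batch 2, and in KPC organoids 4.47, 10.8 and 8.97. KPC organoids thus overlapped with day 7 KC organoids, at 5.88, 5.04 and 4.69 CPM. Matrigel organoids had 17.3, 23.1 and 31.5 CPM and 2D cells 10.96 to 21.5 (median 15.9), again overlapping. The log2 fold change was -3.32 (SE 0.264) for KPC against KC, -1.98 (SE 0.199) for Matrigel, -4.15 (SE 0.251) for day 7 and -2.62 (SE 0.176) for 2D against collagen day 13, and the last was -2.89 without 2D replicates 1 to 3.

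Ces2g, a member of the carboxylesterase 2 family, was lowest in KPC organoids, at 30.7, 27.5 and 29.6 CPM. All KC groups lay above, with 236, 181 and 187 CPM in collagen of batch 2 and 260, 232, 246, 197 and 253 in batch 1. Matrigel organoids had 177, 171 and 167 CPM, 2D cells 84.8 to 143 (median 103) and day 7 organoids 63.7, 68.2 and 70.8. Only the collagen batches of day 13 overlapped, and the other neighbors in this order lay apart. The log2 fold change was -2.78 (SE 0.176) for KPC against KC, -0.47 (SE 0.136) for Matrigel, -1.81 (SE 0.147) for day 7 and -1.14 (SE 0.115) for 2D. The genes with the most similar levels over the libraries were H2-D1, Hspa1b and Pilrb2 (r 0.98, 0.96 and 0.94) for Ces2g and C4bp, Ctsb and Itm2b (r 0.93, 0.93 and 0.92) for Cyp4f14.

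Cyp1b1, a P450 that oxidizes estradiol and polycyclic aromatic hydrocarbons and a classical target of the aryl hydrocarbon receptor, was the only one of the 7 with its highest level in the KPC line. KPC organoids had 21.7, 23.3 and 29.0 CPM, from 34 to 55 counts. KC organoids of the same batch had 1, 0 and 0 counts, so KPC organoids were at least 11.8-fold higher, computed against 3 counts per library. The other KC groups had between 0 and 8 counts, at 1.39 to 3.68 CPM in collagen day 13 of batch 1, 1.75 to 2.62 in Matrigel, 1.47 to 3.10 at day 7 and 0 to 3.94 in 2D. These 4 groups overlapped, and their differences from collagen day 13 were between -0.21 and 0.05 on the log2 scale with SEs of 0.42 to 0.47. At this depth, differences as large as these SEs could not be told from 0, so a change was neither shown nor excluded. Rps4l, Slc38a1 and Sgce had the most similar levels over the libraries (r 0.88, 0.85 and 0.85).

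**Figure D3:**
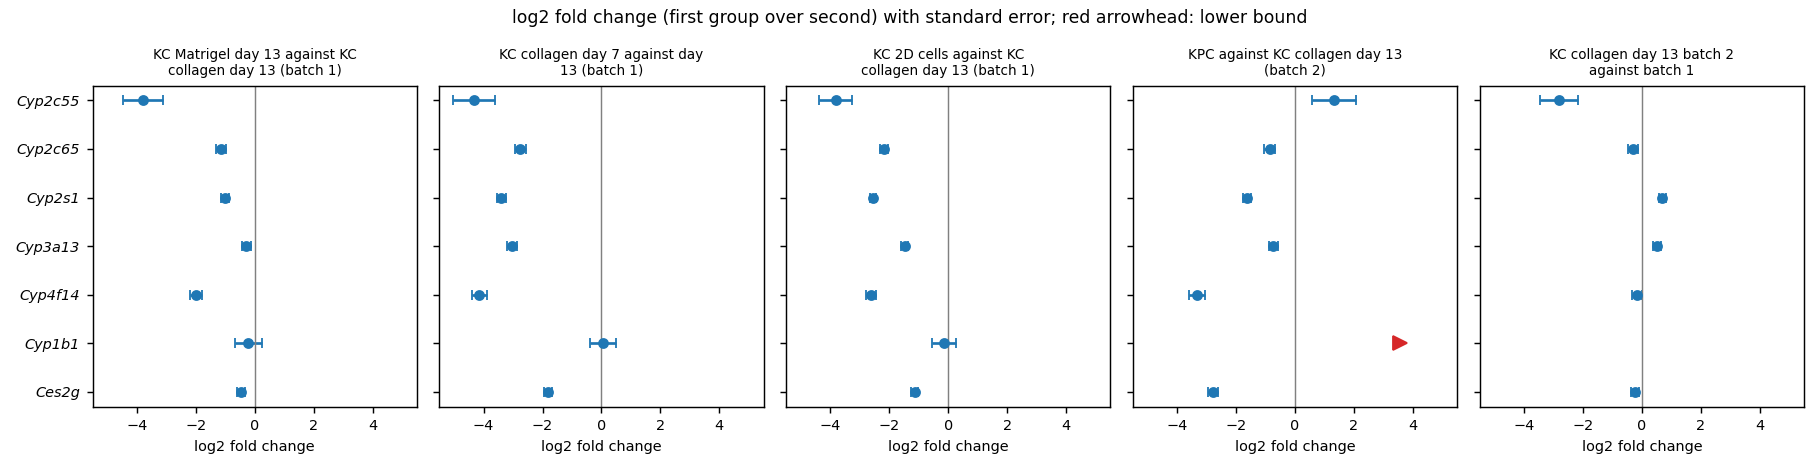
Log2 fold change (x axis) of the 7 genes (y axis) in the 5 comparisons, as points with the standard error of the fit. The arrowhead marks a lower bound for Cyp1b1 in KPC organoids, whose value between the batches is not drawn because the second KC batch had at most 1 count. In the first 3 comparisons, which share the 5 collagen libraries, 6 of the genes lie at or below -0.28 and Cyp1b1 lies near 0.

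Read against all genes, the counts of members called do not test anything, since the same levels chose them. In Matrigel against collagen 5 of the 7 passed an adjusted p of 0.1 (edgeR, quasi-likelihood test), where 12.9% of all tested genes did. For day 7 against day 13 the count was 6, against 55.1% of all genes, and for 2D cells 6 against 49.6%. KPC against KC gave 6 against 19.9%, with Cyp2c55 the one not called. Batch 2 against batch 1 of the same KC organoids gave 4 against 37.3%, namely Cyp2c55, Cyp2s1, Cyp3a13 and Cyp1b1. Median log2 fold changes of the 7 genes were -1.01, -3.03, -2.17, -0.85 and -0.24 in this order of comparisons, beside -0.01, 0.01, 0.01, 0.01 and -0.05 over all tested genes.

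The other genes of the pathway were taken from lists that do not include the 7 genes, and these were tested in the same fit. Of 43 other Cyp genes listed, 40 had a count and 8 passed the filter, and of 12 other Ces genes 3 did. The partner and regulator list had 23 tested genes of 26, conjugation 14 of 35 and eicosanoid synthesis 10 of 22. Other P450 genes were therefore mostly not measurable here, and Nr1i3, the constitutive androstane receptor, reached at most 4 counts and was not tested.

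At day 7 the carboxylesterases and conjugating enzymes were low, as 6 of the 7 genes above were. All 3 tested Ces genes were lower than at day 13 in batch 1. Ces2a was at 7.18 ± 2.17 CPM (SD, n = 3) against 108 ± 96.1 (SD, n = 5), a log2 fold change of -3.88 (SE 0.603, edgeR adjusted p = 7.93e-06), and -2.37 without replicates 4 and 5 of day 13 (edgeR adjusted p = 1.94e-06). Ces2c fell by 3.65 on the log2 scale, and Ces2b, at most 3 counts at day 7, was at least 4.99-fold lower. Of 14 conjugation genes 9 were lower and 1 higher, 71.4% of the list against 55.1% of all tested genes, and their median log2 fold change was -1.99, beside 0.01 over all genes. The lower ones included the sulfotransferase Sult1b1 at -3.72 (SE 0.426) and the microsomal epoxide hydrolase Ephx1 at -1.13 (SE 0.196), with edgeR adjusted p = 8.73e-08 and 3.24e-05. Ephx2, the soluble epoxide hydrolase, was at -0.32 (edgeR adjusted p = 0.265) and was not called.

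Among partners and regulators at day 7, 7 of 23 were lower and none higher, 30.4% of the list against 55.1% of all tested genes. Hnf4g, a nuclear receptor of intestinal epithelium, was at 1.05 ± 0.805 CPM (SD, n = 3) against 16.0 ± 2.84 (SD, n = 5), a log2 fold change of -3.90 (SE 0.448, edgeR adjusted p = 9.25e-08). Nr1i2, the pregnane X receptor, was at least 5.93-fold lower than its 8.72 ± 0.868 CPM at day 13 (edgeR adjusted p = 2.01e-07). Hnf4a (-0.31, edgeR adjusted p = 0.213) and Tiparp (-0.26, edgeR adjusted p = 0.225) did not pass the test. Por fell by 0.50 (SE 0.141, edgeR adjusted p = 0.0048). Ahr was at -0.68 (edgeR adjusted p = 0.0776), a call lost in 7 of 17 alternatives. Nqo1 had 33.9 ± 1.83 CPM (SD, n = 3) at day 7 and 31.5 ± 3.93 (SD, n = 5) at day 13 in batch 1.

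Cyp1a1 and some genes of eicosanoid synthesis were higher at day 7. Cyp1a1, a P450 induced through the aryl hydrocarbon receptor, was at 7.56 ± 1.55 CPM (SD, n = 3) against at most 3 counts per library at day 13, at least 4.80-fold higher (edgeR adjusted p = 1.46e-05). Cyp1b1, for comparison, differed by 0.05 on the log2 scale. Ptgs2, the inducible cyclooxygenase, rose by 2.28 (SE 0.351) and Ptgr1, a prostaglandin and leukotriene reductase, by 1.79 (SE 0.127), with edgeR adjusted p = 7.01e-06 and 2.68e-11. Of the 10 eicosanoid genes 3 were higher and 2 lower, 50% of the list against 55.1% of all tested genes, and the lower ones were the prostaglandin D synthase gene Hpgds at -2.15 (SE 0.416) and the prostaglandin reductase gene Ptgr2 at -1.08 (SE 0.117), with edgeR adjusted p = 0.000131 and 3.23e-08. Of the 8 other Cyp genes 5 were lower and 2 higher, 87.5% of the list, and the second of the higher ones, Cyp20a1 (edgeR adjusted p = 0.0804), lost its call in 11 of 18 alternatives.

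**Figure D4:**
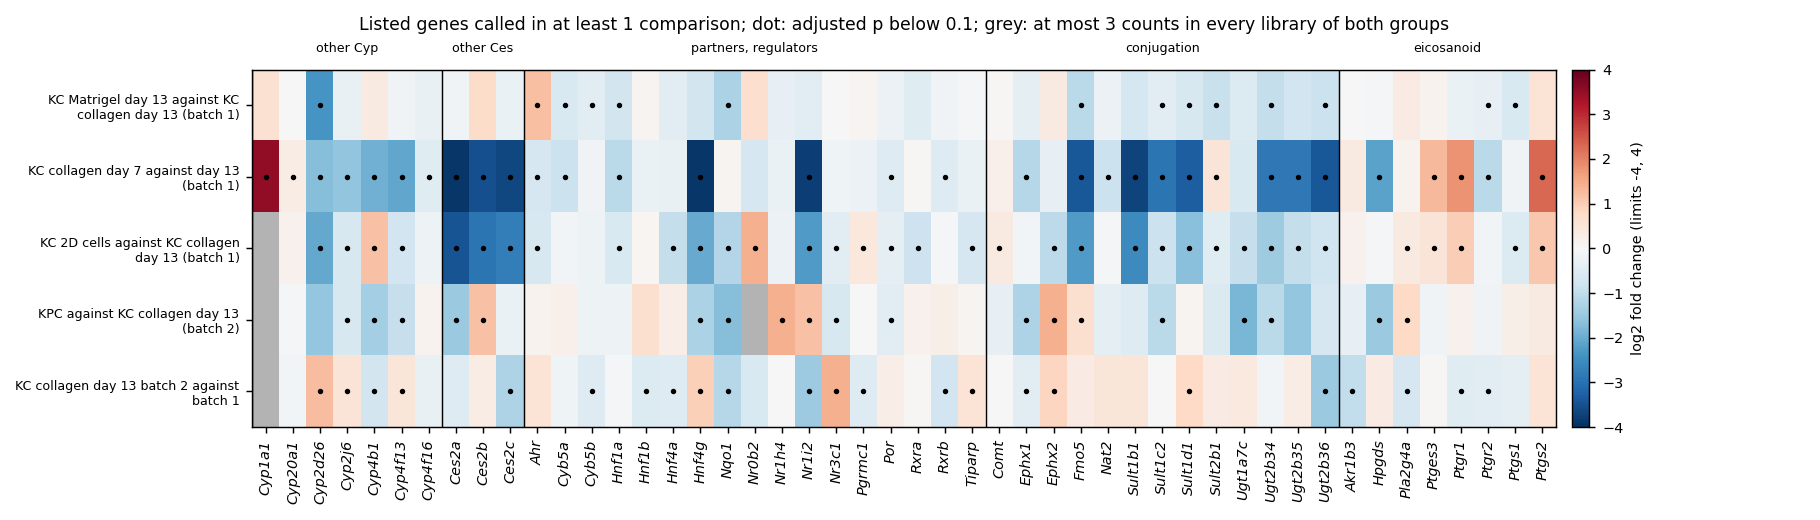
Log2 fold changes (color, from -4 to 4) of the 48 listed genes called in at least 1 comparison (x axis, by list) in the 5 comparisons (y axis), with a dot where the edgeR adjusted p was below 0.1 and grey where every library of both groups had at most 3 counts. The row of day 7 against day 13 is blue over Ces and most conjugation genes and red for Cyp1a1 and Ptgs2.

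Between Matrigel and collagen at day 13, 5 of the 34 other P450, carboxylesterase, partner and regulator genes were lower and 1 higher in Matrigel, 17.6% of them against 12.9% of all tested genes, and the 6 calls became 3 without Matrigel replicate 3. None of the 3 Ces genes was called, although Ces2a turned from -0.14 (edgeR adjusted p = 0.903) to 1.37 (edgeR adjusted p = 0.000543) when collagen replicates 4 and 5 were left out. Ahr was higher in Matrigel, at 19.5 ± 3.36 CPM (SD, n = 3) against 8.57 ± 1.57 (SD, n = 5), a log2 fold change of 1.19 (SE 0.255, edgeR adjusted p = 0.0029). Tiparp, a target and repressor of the receptor, was at -0.09 (edgeR adjusted p = 0.849). Nqo1, the quinone reductase, fell by 1.26 (SE 0.186) to 13.1 ± 0.363 CPM (SD, n = 3) from 31.5 ± 3.93 (SD, n = 5), with edgeR adjusted p = 3.91e-05. Cyp2d26 was at most 3 counts in Matrigel and overlapped with collagen, a call (edgeR adjusted p = 0.0677) lost in 5 of 14 alternatives. Of 14 conjugation genes 6 were lower and none higher, 42.9% of the list, among them the flavin monooxygenase Fmo5 at -1.06 (SE 0.202, edgeR adjusted p = 0.000848) and, with the smallest change, Sult1c2 at -0.42 (edgeR adjusted p = 0.0615), a call lost in 6 of 18 alternatives. Ugt2b36, also among the 6, lost its call in 11 of 17. In the eicosanoid list Ptgr2 fell by 0.33 (edgeR adjusted p = 0.0633), a call lost in 13 of 18 alternatives. Por, Nr1i2, Hnf4a, Ephx1 and Ephx2, with log2 fold changes between -0.46 and 0.35, did not pass the test (edgeR adjusted p between 0.19 and 0.39).

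In 2D cells the carboxylesterases were again low. Ces2a was at 10.98 ± 4.71 CPM (SD, n = 6), a log2 fold change of -3.44 (SE 0.478, edgeR adjusted p = 3.63e-06) against collagen day 13, and -1.95 without collagen replicates 4 and 5. Ces2c fell by 2.76 and Ces2b was at least 2.28-fold lower. Of the 34 genes 16 were lower and 3 higher, and of the 14 conjugation genes 10 were lower and 1 higher, 55.9% and 78.6% of these lists against 49.6% of all tested genes. Nr1i2 fell by 2.25 (SE 0.323), Nqo1 by 1.17 (SE 0.158), Hnf4a by 0.97 (SE 0.174), Tiparp by 0.66 (SE 0.160), Por by 0.38 (SE 0.117) and Ephx2 by 1.05 (SE 0.226), with edgeR adjusted p between 2.35e-06 and 0.0103. The genes that rose most were Nr0b2, a corepressor of nuclear receptors, by 1.42 (SE 0.334), Cyp4b1 by 1.17 (SE 0.196) and Ptgs2 by 1.08 (SE 0.367), the last not called without 2D replicates 1 to 3.

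KPC and KC organoids were compared within batch 2, in which the members except Cyp2c55 and Cyp1b1 were lower in KPC. Of the 34 genes 8 were lower and 4 higher, 35.3% of them against 19.9% of all tested genes, and the 12 calls became 7 without KC replicate 1. Ahr (0.14, edgeR adjusted p = 0.838) and Tiparp (0.11, edgeR adjusted p = 0.775) did not pass the test, and Cyp1a1, although called, had at most 3 counts in every library, so no fold is given. Nqo1, which is also induced through the antioxidant response, fell by 1.70 (SE 0.301) from 14.2 ± 2.75 to 4.38 ± 1.75 CPM (SD, n = 3 each, edgeR adjusted p = 0.000234). The genes that rose most were Nr1h4, the bile acid receptor, by 1.42 (SE 0.327) and Ephx2 by 1.42 (SE 0.207), with edgeR adjusted p = 0.00351 and 2.58e-05. Ephx1 fell by 1.23 (SE 0.223, edgeR adjusted p = 0.000331), so the epoxide hydrolases went in opposite directions. Ces2b rose by 1.16 (SE 0.340, edgeR adjusted p = 0.0208) while Ces2a was at -1.49 (SE 0.566, edgeR adjusted p = 0.0804), a call lost in 8 of 14 alternatives. Nr1i2 was at 1.18 (edgeR adjusted p = 0.0573) and lost its call in 8 of 12. Ugt1a7c, a glucuronosyltransferase, had the lowest value, -1.84 (SE 0.488, edgeR adjusted p = 0.0108), and Por fell by 0.46 (edgeR adjusted p = 0.0483), a call lost in 3 of 14.

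Between the batches of KC collagen organoids at day 13, 6 of the 34 genes were higher and 9 lower in batch 2. The share called was 44.1%, and 43.5% among partners and regulators, near the 37.3% of all tested genes. Nr3c1, the glucocorticoid receptor, rose by 1.42 (SE 0.159) in batch 2, to 81.4 ± 12.4 CPM (SD, n = 3) from 30.4 ± 4.29 (SD, n = 5), with edgeR adjusted p = 3.17e-07. Hnf4g rose by 0.94 (SE 0.256), Ephx2 by 0.86 (SE 0.215) and Tiparp by 0.55 (SE 0.173), while the log2 fold change was -1.45 (SE 0.366) for Nr1i2, -1.15 (SE 0.197) for Nqo1 and -1.48 (SE 0.351) for Ugt2b36, with edgeR adjusted p between 8.08e-05 and 0.0177. Ces2c was at -1.23 (edgeR adjusted p = 0.0378), a call lost in 5 of 16 alternatives, and Cyp2d26 at 1.23 (edgeR adjusted p = 0.0754), lost in 8 of 14. What set the batches apart is not given in the labels.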

How the data were processed

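RNA was sequenced from 23 libraries in 6 groups, taken from the labels. The authors made 3'-end libraries with unique molecular identifiers (UMIs). Reads were placed on GRCm38, and the Drop-seq pipeline (version 1.0) with GENCODE M25 gave UMIs per gene. The deposited values are raw counts of 27207 genes, not normalized. Here they were analysed in R 4.3.3 with edgeR 4.0.16, by TMM normalization, filterByExpr (11144 genes) and the quasi-likelihood F-test in one fit of all 23 libraries, with a Benjamini-Hochberg adjusted p of 0.1, the false discovery rate of the study, as threshold. Standard errors (SE) of fold changes were taken from this fit, and correlations used log2 CPM (prior count 2). The limit of 3 counts behind a 0 covers counting error only.

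The 7 genes and the gene lists were chosen with earlier results of these data known. In each comparison the called list genes with the 3 highest and 3 lowest log2 fold changes are named. Por, Ahr, Nr1i2, Nr1i3, Hnf4a, Tiparp, Nqo1, Ephx1 and Ephx2 are named in some comparisons and not in all. The genes most like each member are named too. Others were named after their values were seen. The study describes the day 7, Matrigel and 5 collagen day 13 libraries as separate experiments. For the other groups the sources used here name no separate cultures, so p-values there measure a spread that may be technical. Alternatives were DESeq2 1.42.0, other scalings, filters and thresholds, other groups in the fit, a replicate block and each library left out. Leaving out 2D replicates 1 to 3, or collagen day 13 replicates 4 and 5, was added after seeing the data. Identity between transcripts and positions come from GENCODE M21, and promoters of all 7 genes from RefSeq. The further alleles of the mouse lines are not reported here.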

Additional observations from a re-analysis of the deposited data

Results flagged for a closer look

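Cyp3a13 in KC collagen day 13 of batch 1, replicate 5, at 811 CPM, lay far from the other 4 libraries of its group, of which the nearest had 608 CPM and the lowest 538. The gap to the nearest library was 0.744 of the group's range, just above the limit of 0.71 in Dixon's rule for outliers. The rule was applied in 14 checks of a gene in a group, only in KC 2D and collagen day 13 of batch 1. The other groups held too few libraries for it. No other value was flagged. The rule takes 1 value at a time, so libraries that are high together, as replicates 4 and 5 for Cyp2c55, can escape it. The spread between the collagen day 13 replicates was known when the genes were chosen, so the flag is a description and not a test. The flagged level of Cyp3a13 lay below every library of batch 2.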

How the results depend on the processing

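Of 569 fold changes of the 7 genes under the alternatives, 537 moved by less than the spread between replicates, 32 moved by more and none of those called changed sign. Of 84 group levels 77 moved by less than that spread, and the 7 that moved by more did so under scaling by library size alone. Among 5012 values of the listed genes 4699 kept their side of the threshold, 218 lost it, 92 gained it and 3 reversed. The reversed values are all of Ces2a. In Matrigel against collagen it was at 0.97 with the replicate block and at 1.37 without collagen replicates 4 and 5, and between the batches at 1.03 without them. For all genes, Matrigel against collagen gave 954 calls with library size alone, of which 654 were higher in Matrigel, and 952 when every library had to hold at least 10 counts of a gene. For the 34 P450, carboxylesterase, partner and regulator genes, the strict filter left 20 tested genes and gave 3 calls in Matrigel, 9 at day 7, 10 in 2D and 5 in KPC organoids, and no filter gave 11 in Matrigel among 78 tested genes. The number of genes tested differed between these settings, and the cause of the changed counts was not tested. With 1 library left out, calls over all genes ran from 901 to 1427 in Matrigel (lowest without Matrigel replicate 1), 5402 to 5934 at day 7, 4950 to 5703 in 2D, 1647 to 1794 in KPC organoids and 3135 to 4257 between batches, and among the 34 genes from 3 to 7, 14 to 17, 17 to 20, 7 to 12 and 10 to 14. After subtraction of group means, same-numbered replicates of different groups correlated between -0.11 and 0.08, and differently numbered ones between -0.11 and 0.13. The numbers thus showed no sign of pairing, but 3 to 5 same-numbered pairs per comparison cannot exclude it. The replicate block changed 20 of 290 calls of listed genes. Counts near 3 limit Cyp1b1 and Cyp1a1.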
